A study of Mus musculus with 28 samples.

Results

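RNA of a mouse bone marrow fraction enriched for haematopoietic stem cells was compared with RNA of common myeloid progenitors, the next stage on the path into the myeloid lineages. The 9 arrays used were those titled as HSC enriched (HSC, 5 arrays) or as CMP (4 arrays), out of 28 arrays in all and 22 in the experiment on sorted cells. HSC were bone marrow cells sorted as Lin-, sca+ and kit+, that is, without markers of mature lineages and with the surface proteins Sca-1 and Kit. CMP were bone marrow cells sorted as Lin- and kit+ but sca-, and further as FCR+ and CD34low. The labels put granulocyte-macrophage progenitors (GMP, 4 arrays) at FCR+ and CD34high, megakaryocyte-erythroid progenitors (MEP, 3 arrays) at FCR- and CD34-, and add 6 arrays of leukaemic GMP-like cells (L-GMP), which entered the fit only to estimate the spread between arrays. Each sample came from about 10000 sorted cells, of which about 50 ng of total RNA was amplified and biotin-labelled. Strain, age, sex and genotype of the mice are not given in the labels, and all normal sorts carry no named treatment. The 6 arrays of a separate experiment on transduced cells were amplified on other days and were not used here.

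Haematopoietic stem cells are rare, mostly resting marrow cells that can renew themselves and give rise to every blood lineage. The Lin-, sca+, kit+ gate holds stem cells together with multipotent progenitors that have lost long-term renewal, so it is a mixture. Common myeloid progenitors have lost most lymphoid potential and give rise to the granulocyte-monocyte and the megakaryocyte-erythroid branches. The step between them is known for the loss of stem cell transcription factors and surface proteins, entry into active division and growth, and low-level expression of genes of several myeloid lineages at once.

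Levels below are log2 array intensities, scaled so that all arrays share a common mean. Values under a floor of 38.7 intensity units, 5.27 on the log2 scale, were set to it. A gene was counted as changed at an adjusted p under 0.05 from the moderated test of limma, adjusted by the Benjamini-Hochberg method over 8422 genes, and a positive log2 change means a higher level in HSC. Array medians of the deposited intensities lay between 112 and 116 in HSC and between 105 and 109 in CMP. The share of tested genes at the floor was 1.37% to 1.84% per array. Across genes, which are not independent replicates, arrays correlated at r from 0.937 to 0.983 within HSC, from 0.959 to 0.982 within CMP, and from 0.908 to 0.962 between the groups. RNA length after amplification was read from the control probe sets of Actb and Gapdh, where the signal at the 3' end over that at the 5' end, on the log2 scale, was 3.09 ± 0.15 in HSC (SD, n = 5) and 3.0 ± 0.06 in CMP (SD, n = 4; exact two-sided permutation p = 0.341, smallest possible 0.0159). Several arrays stood apart in some gene groups. Replicate 3 of HSC was high in myeloid granule genes, and replicate 4 of HSC was low in division genes. Replicate 1 of HSC, of CMP and of GMP was low in immediate early genes. Replicate 4 of CMP was high in megakaryocyte and erythroid genes. Their values stand beside each result they touch. Nothing in the labels says that replicates came from separate animals, so p-values rest on a spread between samples that may be technical. That spread was pooled over all arrays of the sorted experiment, GMP, MEP and L-GMP included, and is not that of HSC and CMP alone. Where a gene lay at the floor in other sorts, or varied most in HSC or CMP, errors and p-values can overstate the precision.

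Of the 8422 genes tested, 1132 changed, a background of 13.4%. In HSC 506 genes were higher (6.01%) and 626 were lower (7.43%), and the median log2 change of all genes was -0.00062. These shares are the background for every count of list members below. The arrays of the sorts did not overlap for 1463 genes (17.4%), with HSC above CMP in 689 (8.18%) and below in 774 (9.19%). Of the 209 genes that changed at least 2-fold, 139 were higher and 70 lower in HSC, and of the 40 that changed at least 4-fold, 19 were higher and 21 lower. Left on the deposited scale without rescaling, 892 genes changed, 535 higher and 357 lower in HSC, so 60.0% of the changed genes were higher there, against 44.7% with scaling. Leaving out replicate 4 of CMP gave 688 changed genes (343 higher, 345 lower), and leaving out replicate 1 of CMP gave 803 (389 higher, 414 lower). Because arrays are scaled to a common mean, and because each sort mixes cells, fewer cells of a type and less RNA per cell cannot be told apart.

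**Figure D1:**
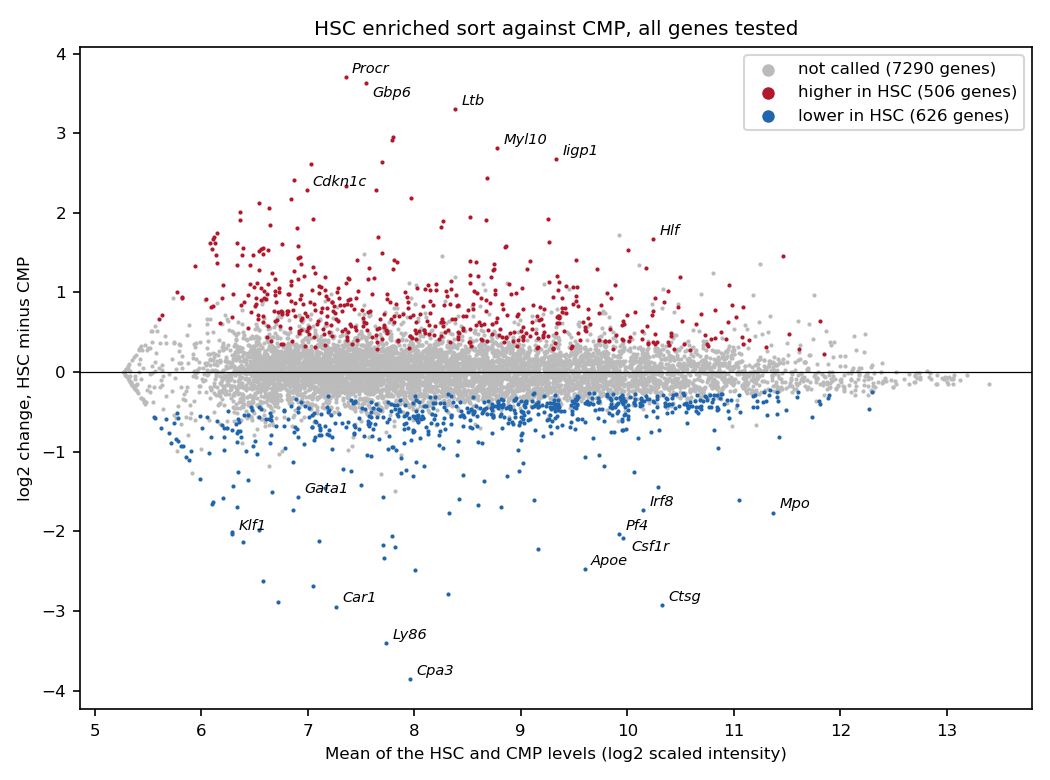
The plot sets the log2 change of each tested gene (HSC minus CMP, vertical axis) against its mean level over both sorts (horizontal axis, log2 scaled intensity), with genes that changed in colour. Of the 8422 genes, the 506 higher and 626 lower in HSC lie on both sides of a median of -0.00062, and the leading genes are named.

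Procr, Gbp6 and Ltb had the largest rises in HSC among genes whose arrays did not overlap. Procr encodes the endothelial protein C receptor, a surface protein used to isolate stem cells. It measured 9.31, 9.28, 8.88, 9.14 and 9.43 on the 5 HSC arrays, against 5.27, 5.43, 5.84 and 5.48 on the 4 CMP arrays. The groups lay far apart, with 1 CMP array at the floor, and the fitted difference was 3.70 ± 0.10 (SE), or 13-fold (adjusted p = 5.63e-16). Procr was at the floor on every GMP and MEP array, and those arrays add no spread to the pooled error. Over 23 alternative settings its adjusted p ranged from 6.13e-17 to 2.91e-06. Gbp6, a guanylate binding protein of cell-autonomous immunity, gave 9.46, 9.67, 9.63, 8.67 and 9.38 in HSC, against 5.27, 5.86, 6.01 and 5.77 in CMP. This was a 12.4-fold difference (log2 3.63 ± 0.16, adjusted p = 9.27e-13) without overlap. Gbp6 too averaged the floor of 5.27 in GMP and in MEP, and its adjusted p ranged from 5.18e-15 to 3.34e-05 over the same settings. Ltb, a cytokine of the tumour necrosis factor family, lay between 9.60 and 10.36 in HSC and between 6.26 and 7.47 in CMP (log2 3.30 ± 0.23, adjusted p = 1.78e-09). Iigp1, an immunity-related GTPase, measured 10.82, 10.86, 10.73, 10.25 and 10.70 in HSC, against 7.78, 7.91, 7.97 and 8.30 in CMP. Replicate 4 was the lowest HSC array for Gbp6 and Iigp1, yet still above every CMP array.

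The other genes with the largest rises had varied functions. Wfdc18, a secreted protease-inhibitor-like protein, was higher in HSC by 2.95 ± 0.17 on the log2 scale, and Ddx4, an RNA helicase best known from germ cells, by 2.92 ± 0.30. Myl10, a myosin light chain, was higher by 2.81 ± 0.37, with replicate 4 of HSC at 9.09 and the other 4 at 10.35 to 10.72. Pglyrp2, a peptidoglycan amidase, was higher by 2.63 ± 0.13 and Ankrd33b, an ankyrin repeat protein, by 2.61 ± 0.15. Tgm2, a transglutaminase, Aldoc, the brain-type aldolase of glycolysis, and Hdgfl3, a relative of hepatoma-derived growth factor, were higher by 2.43 ± 0.35, 2.41 ± 0.23 and 2.34 ± 0.14. These 12 genes had adjusted p-values between 5.63e-16 and 6.13e-05, and were chosen among genes whose arrays did not overlap. A further 8 genes were called higher in HSC with every CMP array at the floor. Among them, Fstl1, a secreted follistatin-like protein, was at least 3.36-fold higher in HSC and Nap1l3, a nucleosome assembly protein relative, at least 3.23-fold. Socs2, an inhibitor of cytokine signalling, was at least 3.20-fold higher, Nrk, a protein kinase, at least 3.09-fold, Gbp8, another guanylate binding protein, at least 2.51-fold, and Nr5a1, a nuclear receptor, at least 2.0-fold. Nr5a1 was at the floor on replicate 1 of HSC as well and between 5.99 and 7.31 on the other 4.

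In the other direction, the largest fall was that of Cpa3. Cpa3, the carboxypeptidase of mast cell granules, measured 5.94, 6.08, 6.62, 5.82 and 5.70 in HSC, against 9.94, 10.14, 10.05 and 9.41 in CMP. The fitted difference of -3.85 ± 0.38 corresponds to a 14.5-fold lower level in HSC (adjusted p = 3.63e-07). Ly86, a partner of a Toll-like receptor relative on myeloid cells, gave 6.37, 5.52, 6.86, 5.77 and 5.65 in HSC, against 9.50, 9.28, 9.23 and 9.75 in CMP (log2 -3.40 ± 0.21, adjusted p = 1.92e-10). Car1, the carbonic anhydrase of early red cell precursors, was spread widely among CMP, at 6.37, 5.71, 5.62, 5.75 and 5.51 in HSC, against 9.21, 8.03, 7.39 and 10.31 in CMP. Even so the groups did not overlap (log2 -2.94 ± 0.39, adjusted p = 2.47e-05). Ctsg, the neutrophil protease cathepsin G, fell by 2.92 ± 0.34 and F13a1, a coagulation factor subunit made by monocytes and megakaryocytes, fell by 2.78 ± 0.46. The water channel Aqp1 fell by 2.69 ± 0.19, the cystatin Cst7 by 2.49 ± 0.18, and the lipid carrier Apoe by 2.47 ± 0.16. The metal-binding protein Mt1 fell by 2.34 ± 0.21, the vesicle adaptor subunit Ap3s1 fell by 2.22 ± 0.12, the annexin Anxa3 by 2.20 ± 0.30, and the red cell adhesion protein Icam4 by 2.17 ± 0.21. These 12 were chosen by the same rule, with adjusted p-values between 4.57e-11 and 0.000273.

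**Figure D2:**
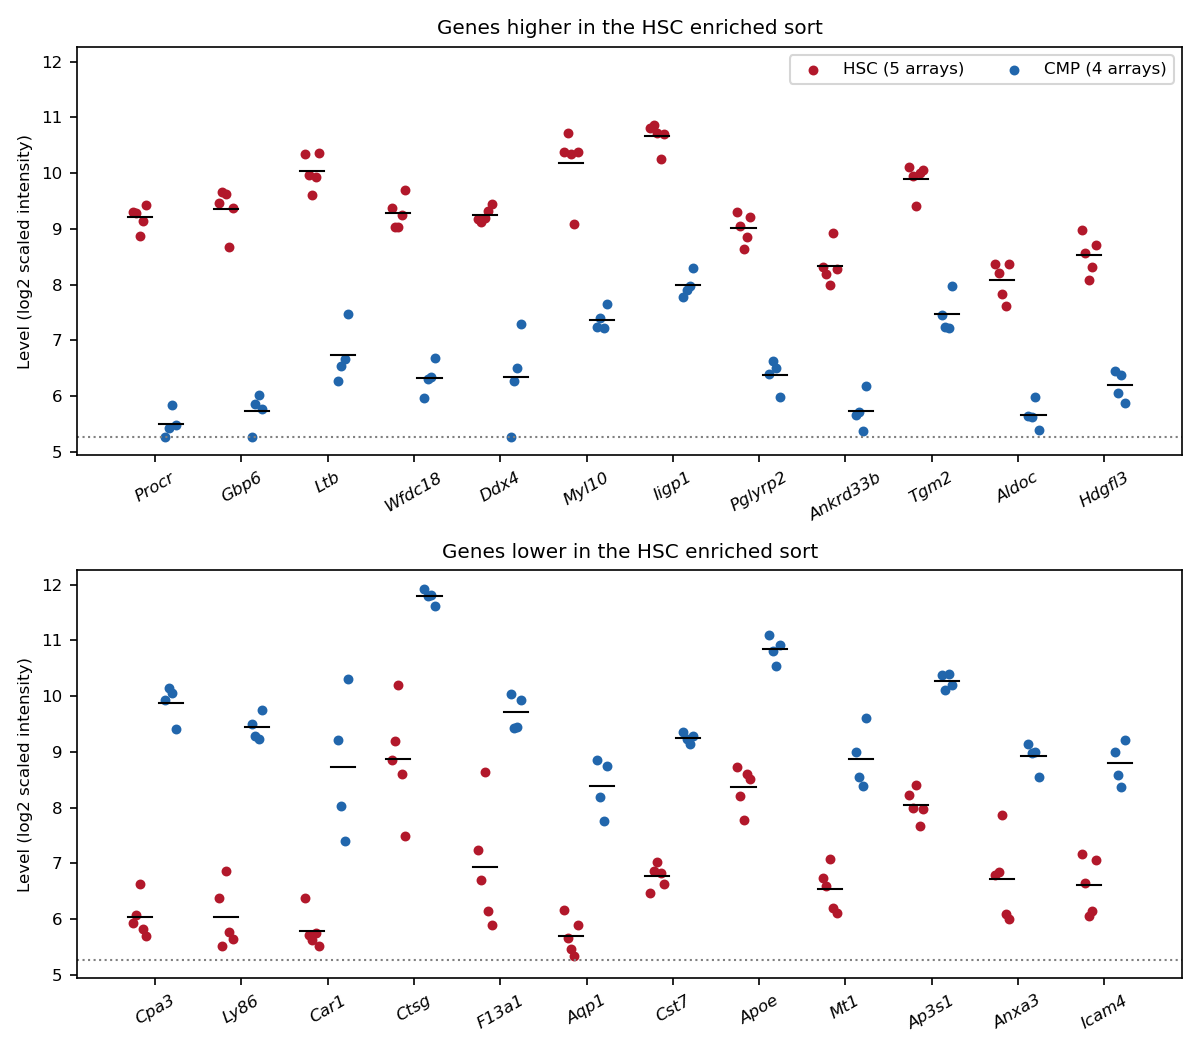
Each point is 1 array and each bar a group mean for the 12 genes with the largest rise (upper panel) and the largest fall (lower panel) in HSC. The vertical axis is the level in log2 scaled intensity, HSC points stand left of CMP points, and the dotted line is the floor at 5.27. No gene shown has overlapping groups, and Procr differs by 3.70 and Cpa3 by -3.85.

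A further 8 genes were called lower with all 5 HSC arrays at the floor. Siglecf, a sialic acid binding receptor of eosinophils, measured 8.41, 8.18, 8.10 and 7.96 in CMP, at least 7.41-fold lower in HSC. Hdc, the enzyme that makes histamine, was at least 6.14-fold lower in HSC, with replicate 4 of CMP at 7.17 and the other 3 between 8.04 and 8.18. Klf1, the erythroid Krüppel-like factor, was at least 4.10-fold lower in HSC, and Mcpt8, a basophil protease, at least 3.16-fold lower. Slc45a3, a sugar transporter, was at least 1.85-fold and Il31ra, a cytokine receptor chain, at least 1.63-fold lower in HSC. Over all genes, 2578 had several kept probe sets, and in 1 of them the probe sets were called in opposite directions. That gene was Sqor, a mitochondrial sulfide oxidase, whose probe set of highest mean was higher in HSC by 1.08 ± 0.17 (adjusted p = 0.00017) and whose second probe set was lower by -0.83 ± 0.18 (adjusted p = 0.00308). Of the 370 changed genes with several probe sets, all probe sets had the same sign in 323. A second probe set was itself called in the same direction in 178 of the 370.

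The sort markers themselves could be read in part. Kit, the receptor of stem cell factor on which both sorts were gated, measured 9.92, 9.74, 9.61, 9.78 and 9.41 in HSC, against 9.53, 9.40, 9.22 and 9.24 in CMP. The ranges overlapped and the difference of 0.34 ± 0.13 did not pass (adjusted p = 0.0899). Fcgr2b, a low-affinity Fc receptor, was lower in HSC, whose label names no FCR gate, at 7.37, 7.52, 7.80, 7.19 and 7.36, against 8.57, 8.70, 8.69 and 8.36 in CMP. The fall of 1.13 ± 0.19 passed (adjusted p = 0.000257), and GMP averaged 10.17 ± 0.25 (SD, n = 4). Fcgr3, another low-affinity Fc receptor, was at the floor on all 5 HSC arrays and on 2 of 4 CMP arrays and did not pass (adjusted p = 0.469). Cd34, a sialomucin, measured 9.78 ± 0.19 in HSC (SD, n = 5) and 9.57 ± 0.26 in CMP (SD, n = 4; log2 0.22 ± 0.25, adjusted p = 0.647). GMP, labelled CD34high, averaged 8.94 ± 0.14 for this probe set and MEP, labelled CD34-, 6.28 ± 0.84, so CMP, labelled CD34low, had more Cd34 RNA signal than GMP. Ly6a, which encodes Sca-1, was not analysed here. Among the other markers of stem cells, Procr, Hlf, Meis1 and Esam were higher in HSC, while Slamf1 and Tek did not pass. Slamf1, a signalling lymphocyte receptor of long-term stem cells, measured 6.18 to 6.48 in HSC and 6.55 to 6.90 in CMP (log2 -0.42 ± 0.16, adjusted p = 0.0852). Tek, the angiopoietin receptor, measured 6.93 to 7.77 in HSC and 7.22 to 7.81 in CMP (adjusted p = 0.879).

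Of 30 measured transcription factors and regulators known from stem cells, 12 rose and 1 fell in HSC, against 6.01% and 7.43% of all genes, and the median log2 change was 0.35 where that of all genes was -0.00062. Hlf, a PAR-type leucine zipper factor that maintains stem cells, measured 11.06, 11.10, 11.14, 11.01 and 11.08 in HSC, against 9.43, 9.51, 9.55 and 9.12 in CMP. The HSC arrays had an SD of 0.05 and all lay above CMP, a 3.19-fold difference (log2 1.67 ± 0.21, adjusted p = 1.09e-05). Meis1, a homeodomain cofactor of Hox proteins, measured 10.65, 10.67, 10.61, 10.63 and 10.56 in HSC, against 9.97, 9.86, 9.90 and 9.69 in CMP, a smaller rise of 0.77 ± 0.19 (adjusted p = 0.0109). Ndn, the growth-restraining protein necdin, rose by 1.32 ± 0.20, Zfp521, a zinc finger regulator of progenitors, by 1.18 ± 0.16, and Nkx2-3, a homeobox factor, by 0.93 ± 0.19. Txnip, which binds thioredoxin and restrains glucose uptake, rose by 0.88 ± 0.18, and Msi2, an RNA-binding regulator of self-renewal, by 0.99 ± 0.27. Without replicate 4 of CMP the adjusted p of Msi2 was 0.0914. Trim47, a tripartite motif protein, rose by 1.26 ± 0.17, with replicate 3 of HSC at 6.79 below the other 4 at 7.64 to 7.72. Foxo3, a forkhead factor of quiescence, passed narrowly at 0.50 ± 0.16 (adjusted p = 0.0352) and missed the threshold on leaving out any HSC array or replicate 4 of CMP (adjusted p from 0.0512 to 0.179).

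The member that fell was Gfi1b, a repressor needed for red cells and platelets, at 6.90 to 7.84 in HSC and 7.83 to 8.33 in CMP (log2 -0.84 ± 0.14, adjusted p = 0.000319). Gata2, Runx1 and Tal1, factors shared by stem and myeloid cells, did not pass. Gata2 measured 10.47 to 10.78 in HSC and 11.07 to 11.56 in CMP without overlap, but its difference of -0.68 ± 0.24 missed the threshold (adjusted p = 0.0622). Runx1 gave -0.32 ± 0.24 and Tal1 -0.07 ± 0.14 (adjusted p = 0.438 and 0.815), with overlapping arrays. The mean level of the list was 8.78 to 8.88 over the HSC arrays and 8.25 to 8.50 over the CMP arrays, with the lowest HSC value on replicate 3.

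Among the Hox genes, the homeobox genes that pattern the embryo and sustain progenitors, 4 of 11 measured rose, all from the HoxA cluster, and 0 fell (median 0.27). Hoxa10 measured 7.70, 7.38, 7.44, 7.65 and 7.66 in HSC, against 5.55, 5.59, 5.76 and 6.0 in CMP, a 3.58-fold difference (log2 1.84 ± 0.14, adjusted p = 1.04e-08). Hoxa9 measured 11.42, 11.64, 11.52, 11.40 and 11.51 in HSC, against 10.23, 10.48, 10.65 and 10.25 in CMP (log2 1.10 ± 0.21, adjusted p = 0.001). Hoxa5 rose by 1.39 ± 0.31 and Hoxa3 by 1.37 ± 0.18, and neither overlapped between the sorts. The rise of Hoxa3 was only 0.13 under 1 of 23 alternative settings (adjusted p = 0.735).

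Of 25 measured genes on a list of stem cell surface markers and receptors, 7 rose and 1 fell in HSC (median 0.22). The list also holds the cytokine Ltb and the transglutaminase Tgm2, which are not receptors. Beside Procr, Ltb and Tgm2, Esam, an endothelial adhesion molecule of stem cells, measured 8.81, 8.84, 8.47, 8.71 and 8.94 in HSC, against 7.66, 7.40, 7.68 and 7.84 in CMP (log2 1.11 ± 0.17, adjusted p = 0.000109). Abcg2, the dye-efflux pump behind the side population, rose by 0.86 ± 0.15 (adjusted p = 0.000417). Flt3, the receptor tyrosine kinase of multipotent progenitors, measured 10.76, 11.00, 10.88, 10.79 and 11.02 in HSC, against 9.82, 10.01, 10.03 and 9.66 in CMP. Its 2.02-fold difference passed (log2 1.01 ± 0.30, adjusted p = 0.0261), though the adjusted p was 0.054 to 0.0874 on leaving out replicate 2 or 5 of HSC or replicate 1 or 4 of CMP. The member that fell, the chemokine receptor Cxcr4, overlapped between the sorts at 6.55 to 7.64 in HSC and 7.43 to 8.25 in CMP (log2 -0.66 ± 0.21, adjusted p = 0.0449). It lost its call on leaving out any of 6 single arrays, replicates 2 to 5 of HSC and replicates 1 and 4 of CMP (adjusted p from 0.062 to 0.194). The mean level of the list did not overlap, at 8.59 to 8.80 in HSC and 8.13 to 8.23 in CMP.

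Of 38 measured genes stimulated by interferon or serving class I antigen presentation, 19 rose and 0 fell in HSC, 34 had a change above 0, and the median was 0.55. The mean level of the list lay between 9.38 and 9.52 over the 5 HSC arrays and between 8.67 and 8.95 over the 4 CMP arrays, and between 13 and 19 members rose when any single array was left out. Beside Iigp1, the antiviral 2'-5' oligoadenylate synthetase relative Oasl2 measured 8.10, 8.06, 7.69, 7.99 and 8.20 in HSC, against 5.94, 6.71, 6.37 and 5.30 in CMP (3.80-fold, log2 1.93 ± 0.21, adjusted p = 1.02e-06). Ifit1, which binds foreign RNA, measured 7.42, 7.28, 6.72, 7.17 and 7.01 in HSC, against 5.40, 5.88, 6.08 and 5.27 in CMP (log2 1.47 ± 0.16, adjusted p = 1.72e-06). The groups did not overlap for either gene. Rsad2, the antiviral enzyme viperin, rose by 1.41 ± 0.33 (adjusted p = 0.00641), and Gbp2, a guanylate binding protein, by 1.28 ± 0.20 (adjusted p = 0.000193). Irf7, a transcription factor that drives interferon production, measured 7.09 to 7.55 in HSC and 6.16 to 6.34 in CMP, a rise of 1.14 ± 0.13 (adjusted p = 2.05e-06). The immunity-related GTPases Igtp and Irgm2 rose by 0.79 ± 0.09 and 0.70 ± 0.15. Ifitm3, a membrane protein that blocks virus entry, rose by 0.64 ± 0.18, with replicate 4 of CMP at 11.25 below the other 3 at 11.56 to 11.59. Without that array its adjusted p was 0.0852.

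Promoter windows of risen members are shown because the list is defined by a response with a known promoter element. They hold the letters GAAA, any 2 bases, and GAAA again, the core of the interferon-stimulated response element, on either strand within 250 bases before the gene's start. Overlapping matches counted once per gene. Of the 19 risen members, 15 had a promoter entry and 8 of these held the letters (53.3%). The same held for 7 of 18 members that did not change and had an entry (38.9%), for 233 of 6851 tested genes with an entry (3.40%) and for 936 of all 27025 promoters (3.46%). Sequences are from RefSeq on assembly GRCm38.p6, read 5′ to 3′ along the gene's own strand, with the matching letters in capitals (TTTC, 2 bases and TTTC where the match is on the opposite strand). The matches shown start at most 120 bases before the gene's start and describe letters only.
Gbp2, chr3:142620589-142620628 (+): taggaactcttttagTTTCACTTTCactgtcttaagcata
Ifit1, chr19:34640789-34640828 (+): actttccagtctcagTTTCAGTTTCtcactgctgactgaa
Rsad2, chr12:26456548-26456587 (-): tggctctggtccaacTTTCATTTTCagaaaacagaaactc
Igtp, chr11:58199507-58199546 (+): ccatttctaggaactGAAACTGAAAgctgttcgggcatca
Irgm2, chr11:58214898-58214937 (+): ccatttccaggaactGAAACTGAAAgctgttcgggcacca

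Rtp4 and Ifit3 belong to the same group of risen genes but passed narrowly. Rtp4, a receptor-transporting protein induced by interferon, measured 10.97 to 11.18 in HSC and 9.39 to 10.17 in CMP (log2 1.19 ± 0.36, adjusted p = 0.032). Ifit3, a partner of Ifit1, measured 6.32 to 7.08 in HSC and 5.27 to 6.24 in CMP (log2 0.83 ± 0.26, adjusted p = 0.0421). The call of Rtp4 was lost without replicate 2, 3 or 4 of HSC or replicate 1 or 4 of CMP (adjusted p from 0.0561 to 0.125). That of Ifit3 was lost without any array but replicate 1 of HSC and replicate 2 of CMP (adjusted p from 0.0529 to 0.159).

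Of 25 measured genes linked with early lymphoid priming, 5 rose and 0 fell in HSC (median 0.14), and the mean level of the list was 8.95 to 9.06 in HSC and 8.73 to 8.81 in CMP. Gimap6, a GTPase of lymphocyte survival, measured 9.43, 9.61, 9.35, 9.30 and 9.83 in HSC, against 7.57, 7.93, 7.48 and 7.23 in CMP, a 3.86-fold difference without overlap (adjusted p = 2.80e-08). Bcl11a, a repressor needed for lymphoid development and for fetal globin silencing, rose by 0.40 ± 0.09 (adjusted p = 0.00443). Dntt, the terminal transferase of antigen receptor joining, measured 11.02 to 11.37 in HSC and 10.14 to 10.82 in CMP (log2 0.78 ± 0.24, adjusted p = 0.0379). Its call was lost on leaving out replicate 2, 3 or 5 of HSC or replicate 1, 2 or 3 of CMP (adjusted p from 0.0675 to 0.12). Lsp1, an actin-binding protein of lymphocytes, rose by 0.84 ± 0.22 and missed the threshold without replicate 1 of CMP (adjusted p = 0.0615). Flt3 was the fifth, and the number of risen members was 3 without replicate 2 or 5 of HSC and 2 without replicate 1 of CMP.

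Of 21 measured transcription factors of granulocytes and monocytes, 4 fell and 1 rose in HSC, with a median of 0.22. The list also holds Egr1 and Klf4, described below with the immediate early genes. Its mean level was 8.43 to 9.03 in HSC and 8.05 to 8.89 in CMP, with replicate 1 lowest in both. On leaving out 1 array the median was 0.14 to 0.31. Irf8, the determinant of monocytes and dendritic cells, measured 8.98, 9.09, 9.61, 9.45 and 9.29 in HSC, against 10.91, 11.01, 11.09 and 11.07 in CMP (3.33-fold lower, log2 -1.73 ± 0.14, adjusted p = 2.80e-08). Cebpa, the factor required to form granulocyte-monocyte progenitors, measured 7.42, 7.57, 7.16, 7.16 and 7.33 in HSC, against 8.10, 8.36, 8.47 and 8.16 in CMP (log2 -0.94 ± 0.15, adjusted p = 0.000221). Both were free of overlap. Cebpd, a related factor, fell by 1.46 ± 0.19, with replicate 3 of HSC highest of its group at 7.04. Zeb2, a zinc finger repressor, fell by 1.05 ± 0.21, with replicate 4 of CMP lowest of its group at 9.94. Spi1, which encodes PU.1, measured 8.23 to 8.72 in HSC and 8.37 to 8.92 in CMP and did not pass (log2 -0.17 ± 0.16, adjusted p = 0.55). Etv3, a repressor of the ETS family, was the riser at 9.43 to 10.04 in HSC and 8.91 to 9.17 in CMP (log2 0.62 ± 0.17, adjusted p = 0.0176). No member rose without replicate 4 of HSC or replicate 1 of CMP, 2 rose without replicate 2 of CMP, and 3 rose without replicate 1 of HSC or replicate 3 of CMP.

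Of 21 measured genes listed with the primary granules, the first granules made in the neutrophil lineage, 11 fell and 2 rose in HSC, with a median of -0.57. The list is wider than granule proteins and includes the receptor Igsf6 and the glutathione transferases Mgst1 and Gstm1. The mean level of the list was 8.97, 9.0, 9.70, 8.70 and 8.63 on the HSC arrays, against 9.94, 9.74, 9.79 and 9.66 on the CMP arrays, so replicate 3 of HSC alone reached the CMP range. Mpo, myeloperoxidase, measured 10.19, 10.69, 11.32, 10.25 and 9.99 in HSC, against 12.31, 12.39, 12.40 and 11.91 in CMP (3.40-fold lower, log2 -1.76 ± 0.29, adjusted p = 0.000257). Ctsg measured 8.85, 9.20, 10.20, 8.60 and 7.50 in HSC, against 11.93, 11.79, 11.82 and 11.61 in CMP (7.58-fold lower, adjusted p = 4.36e-06). In both genes replicate 3 was the highest HSC array and still below CMP. Igsf6, an immunoglobulin superfamily receptor of myeloid cells, fell by 2.12 ± 0.39, with replicate 3 of HSC at 7.91, 2 HSC arrays at the floor and CMP at 7.86 to 8.52. Elane, neutrophil elastase, measured 7.0, 7.66, 9.51, 5.27 and 5.93 in HSC, against 8.36, 8.35, 8.70 and 8.84 in CMP. Here replicate 3 exceeded every CMP array and the difference did not pass (log2 -1.49 ± 0.55, adjusted p = 0.0801). Hp, haptoglobin, also had replicate 3 of HSC, at 9.20, above every CMP array (log2 -1.28 ± 0.50, adjusted p = 0.102).

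Without replicate 3 of HSC, 12 members of the primary granule list fell, and Elane (log2 -2.10, adjusted p = 0.00165) and Hp (log2 -1.81, adjusted p = 0.00368) were among them. Without replicate 5 of HSC or replicate 2 of CMP the count was 7. Ms4a3, a membrane protein of granulocyte-monocyte progenitors, fell by 1.57 ± 0.46 (adjusted p = 0.0265), and lost its call without replicate 4 or 5 of HSC or replicate 1 or 2 of CMP. Prtn3, proteinase 3, was 0.57 ± 0.17 lower (adjusted p = 0.0335), and the call was lost without any array but replicates 1 and 3 of HSC (adjusted p from 0.0618 to 0.0843). The members that rose were not granule proteases. Mgst1, a membrane-bound glutathione transferase, measured 9.44 to 9.94 in HSC and 8.21 to 8.65 in CMP (log2 1.29 ± 0.20, adjusted p = 0.000108). Gstm1, a cytosolic glutathione transferase, rose by 1.04 ± 0.19 (adjusted p = 0.000879).

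The late neutrophil list holds genes of secondary granule proteins and calprotectin, but is wider and includes the enzyme Padi4. Of 14 measured members, 2 rose and 0 fell in HSC. Their median was 0.49, but 0.23 without replicate 3 of HSC, where 1 member rose and 1 fell, and 0.19 without replicate 2 of CMP. The mean levels overlapped at 8.59 to 9.91 in HSC and 7.76 to 8.98 in CMP. The abundant members moved with single arrays. Camp, cathelicidin, measured 9.77, 9.60, 11.68, 9.17 and 9.05 in HSC, against 10.33, 7.63, 9.88 and 9.09 in CMP. Replicate 3 of HSC was the highest and replicate 2 of CMP the lowest array for Camp, and likewise for Ngp, another granule protein, at 11.96 and 9.25. Neither passed, nor did lactoferrin (Ltf) or the calprotectin genes S100a8 and S100a9 (adjusted p from 0.574 to 0.666 over these 5). Padi4, an enzyme that converts histone arginine to citrulline, was the clearest rise at 9.51 to 9.86 in HSC and 7.66 to 8.47 in CMP (log2 1.58 ± 0.29, adjusted p = 0.000961). Pglyrp1, a bactericidal granule protein, measured 5.68 to 6.92 in HSC and was at the floor on 3 of 4 CMP arrays (at least 1.91-fold higher, adjusted p = 0.0181). Without replicate 3 of HSC or replicate 4 of CMP its adjusted p was 0.0532 to 0.0561.

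Monocyte, macrophage and dendritic cell genes split by class. Of 24 measured, 7 fell and 4 rose in HSC (median -0.21). Csf1r, the receptor of macrophage colony-stimulating factor, measured 8.60, 8.90, 9.72, 8.79 and 8.57 in HSC, against 10.78, 11.01, 11.04 and 11.20 in CMP (4.25-fold lower, adjusted p = 9.04e-08). Apoe measured 7.78 to 8.74 in HSC and 10.54 to 11.09 in CMP. The chemokine Ccl9 fell by 1.61 ± 0.19, the pore-forming protein Mpeg1 by 1.29 ± 0.29, the membrane protein Ms4a6c by 1.26 ± 0.14, and the chemokine receptor Ccr2 by 1.04 ± 0.24. Replicate 3 was the highest HSC array for Csf1r, Mpeg1, Ms4a6c and Ccr2, and for F13a1, at 8.65. The risen members were genes of class II antigen presentation and the protease cathepsin S. H2-Eb1, a class II beta chain, measured 9.56, 9.04, 9.14, 8.70 and 9.66 in HSC, against 7.11, 6.59, 6.60 and 9.0 in CMP (log2 1.89 ± 0.41, adjusted p = 0.00384). H2-Aa, a class II alpha chain, measured 10.19, 9.54, 9.48, 9.10 and 9.86 in HSC, against 8.03, 7.37, 7.32 and 9.52 in CMP (log2 1.57 ± 0.39, adjusted p = 0.01). In both, replicate 4 of CMP lay within the HSC range and the other 3 below it. Cd74, the invariant chain that escorts class II, rose by 1.12 ± 0.27 (adjusted p = 0.00736) with replicate 4 of CMP again highest at 6.93. Ctss, the protease that trims the invariant chain, rose by 0.68 ± 0.22 (adjusted p = 0.0415) and lost its call without any array but replicate 2 of HSC and replicate 4 of CMP (adjusted p from 0.0581 to 0.143).

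Of 10 measured genes on a list for mast cells, basophils and eosinophils, 4 fell and 0 rose in HSC (median -0.40). The mean levels did not overlap at 6.66 to 7.07 in HSC and 7.42 to 7.85 in CMP. Beside Cpa3, Hdc and Mcpt8, the fourth was Csrp3, a LIM domain protein, at the floor on 4 of 5 HSC arrays and between 6.44 and 7.37 in CMP (at least 3.10-fold lower, adjusted p = 1.95e-06). Replicate 4 of CMP was the lowest CMP array for Cpa3, Hdc and Mcpt8.

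Of 43 measured erythroid genes, 14 fell and 3 rose in HSC (median -0.25, and -0.10 without replicate 4 of CMP). The mean level of the list was 7.38 to 7.48 over the HSC arrays. It was 7.91, 7.71, 7.64 and 8.14 over the CMP arrays, so CMP were the more variable sort. Gata1, the master regulator of red cells and platelets, measured 5.77, 5.88, 6.38, 6.57 and 6.02 in HSC, against 8.16, 7.57, 7.17 and 7.87 in CMP (2.97-fold lower, log2 -1.57 ± 0.19, adjusted p = 8.62e-06). Klf1 was at the floor on all 5 HSC arrays, against 7.55, 6.88, 6.36 and 8.45 in CMP. Epor, the erythropoietin receptor, measured 5.78, 5.47, 5.61, 5.69 and 5.28 in HSC, against 7.03, 6.43, 5.79 and 7.09 in CMP, where replicate 3 stood barely above the highest HSC array (log2 -1.02 ± 0.19, adjusted p = 0.000879). Aqp1 measured 5.33 to 6.17 in HSC and 7.76 to 8.86 in CMP. Kel, a blood group protease, was at the floor on 3 of 5 HSC arrays and at 6.31 to 7.80 in CMP (at least 3.0-fold lower, adjusted p = 0.00011). Zfpm1, the partner of Gata1 known as FOG1, fell by 0.71 ± 0.15. The transferrin receptor Tfrc and the haem enzyme Alad fell by 0.51 ± 0.14 and 0.39 ± 0.12, which passed narrowly. Without replicate 2 or 5 of HSC or replicate 3 or 4 of CMP the call of Tfrc was lost, and without replicate 2, 3 or 4 of HSC or replicate 1, 2 or 4 of CMP that of Alad. Among the risen members was Bcl11a, described with the lymphoid genes. The globin gene Hba-a1 measured 7.10 to 7.72 in HSC and 6.99 to 7.17 in CMP and did not pass (adjusted p = 0.186).

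Promoter windows of fallen erythroid members are given because GATA factors are the textbook regulators of this list. The letters AGATAA, searched on both strands within 250 bases before the start, occurred in 3 of the 13 fallen members with a promoter entry (23.1%). They occurred in 5 of 19 unchanged members (26.3%), in 508 of 6851 tested genes (7.41%) and in 3090 of all 27025 promoters (11.4%). The 3 windows, from RefSeq on GRCm38.p6 and along the gene's own strand, carry the match in capitals (TTATCT where it is on the opposite strand).
Epor, chr9:21963610-21963645 (-): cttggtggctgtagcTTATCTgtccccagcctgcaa
Icam4, chr9:21029374-21029409 (+): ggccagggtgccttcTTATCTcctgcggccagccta
Kel, chr6:41704361-41704396 (-): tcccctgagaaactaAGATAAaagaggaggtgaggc

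Megakaryocyte and platelet genes fell in 7 of 23 measured and rose in 2 (median -0.05). The mean level was 7.68 to 7.74 over the HSC arrays, against 8.02, 7.86, 7.80 and 8.36 over the CMP arrays. Itga2b, the platelet integrin CD41, measured 9.61, 9.60, 9.51, 9.76 and 9.36 in HSC, against 10.98, 10.82, 10.93 and 11.32 in CMP (2.72-fold lower, adjusted p = 8.03e-05). Pf4, platelet factor 4, measured 9.0, 8.91, 8.85, 8.77 and 9.01 in HSC, against 11.11, 10.39, 9.90 and 12.36 in CMP (log2 -2.03 ± 0.49, adjusted p = 0.00807). CMP arrays differed among themselves by more than HSC arrays did, and replicate 4 was the highest. Cavin2, a caveolar protein, was at the floor on 4 of 5 HSC arrays, against 7.65, 6.76, 6.08 and 9.35 in CMP (at least 4.37-fold lower, adjusted p = 0.000478). Treml1, a platelet receptor, fell by 0.96 ± 0.21, the adhesion receptor Selp by 0.95 ± 0.19 and the thrombin receptor F2r by 0.82 ± 0.14. Vwf, von Willebrand factor, measured 5.27 to 5.81 in HSC and 6.08, 5.65, 5.27 and 8.94 in CMP and did not pass (adjusted p = 0.163), though it passed without replicate 3 of CMP (log2 -1.37, adjusted p = 0.0449). Trpc6, a calcium channel, went against the list at 6.29 to 7.60 in HSC with 3 of 4 CMP arrays at the floor (at least 3.07-fold higher, adjusted p = 3.35e-07). The other riser was Meis1. Without replicate 4 of CMP, 7 members of this list and 11 of the erythroid list fell.

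**Figure D3:**
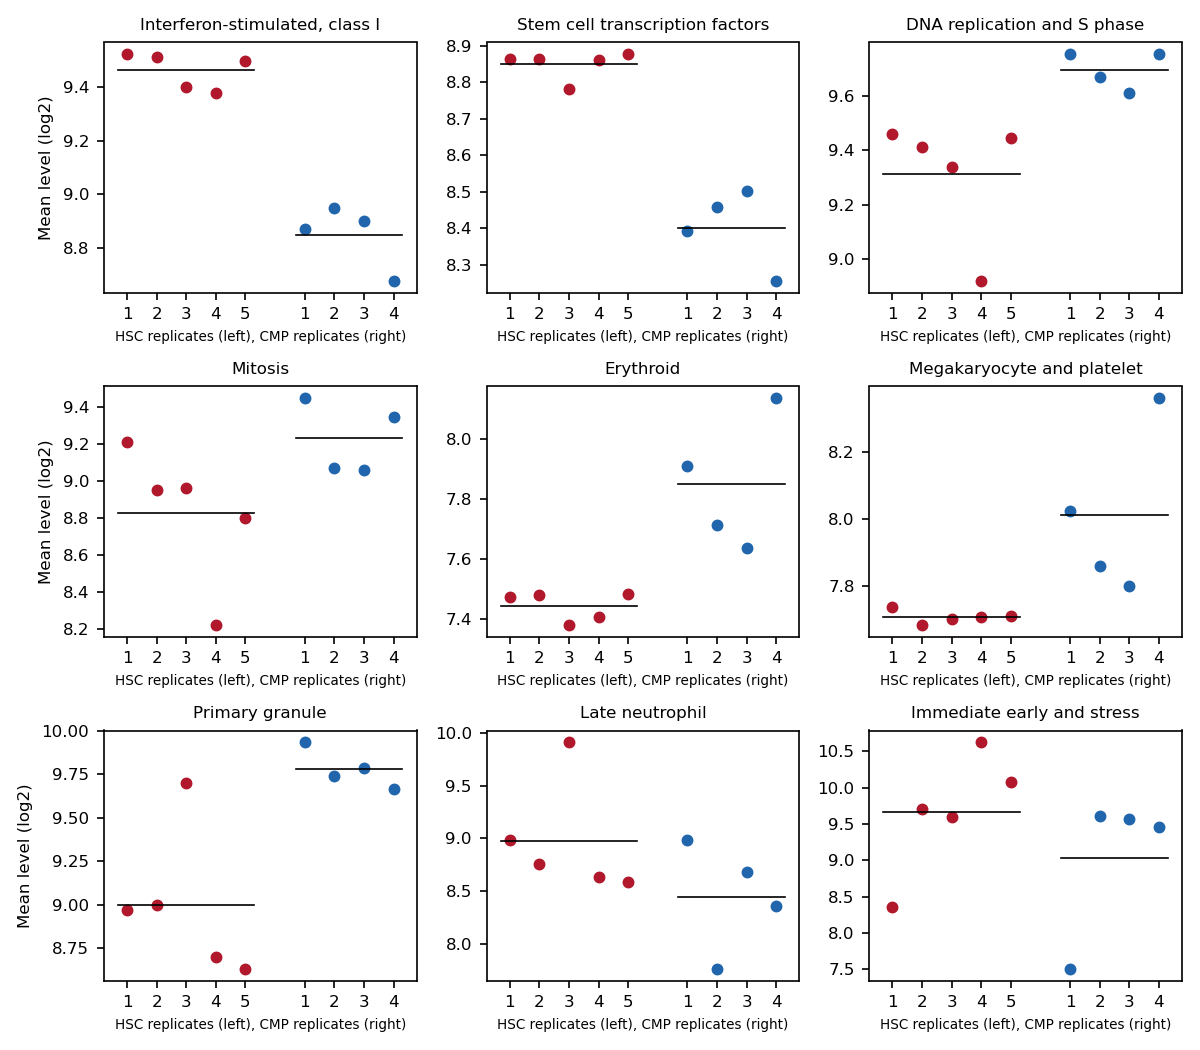
Each panel gives the mean level of 1 gene list (log2 scaled intensity) on every array, with HSC replicates at left and CMP replicates at right, horizontal lines at the group means, and a vertical range of its own. Interferon-stimulated genes lie at 9.38 to 9.52 in HSC and 8.67 to 8.95 in CMP, while replicate 3 of HSC reaches 9.70 for primary granule genes and replicate 4 of HSC falls to 8.22 for mitosis genes.

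Receptors of cytokines changed in both directions. In HSC 5 of 33 measured were higher (15.2%) and 4 lower (12.1%), against 6.01% and 7.43% of all genes (median 0.11). Those that rose belong mainly to inflammatory signalling. Il1r1, the interleukin 1 receptor, measured 7.97, 7.44, 7.48, 7.50 and 7.72 in HSC, against 6.27, 6.36, 6.11 and 6.02 in CMP (log2 1.43 ± 0.13, adjusted p = 1.66e-07). Il18r1, the interleukin 18 receptor, rose by 1.35 ± 0.16, Tnfrsf18, related to the tumour necrosis factor receptors, by 1.29 ± 0.25, and Il27ra, the interleukin 27 receptor, by 0.62 ± 0.16. Flt3 was the fifth. Those that fell were Csf1r, Epor, Il3ra and Pdgfrb. Il3ra, the interleukin 3 receptor, measured 5.94 to 6.80 in HSC and 6.93 to 7.36 in CMP (log2 -0.69 ± 0.19, adjusted p = 0.0199) and lost its call without replicate 3 of HSC or replicate 3 or 4 of CMP. Pdgfrb, a receptor of platelet-derived growth factor, measured 8.29 to 8.71 in HSC and 8.96 to 9.79 in CMP (log2 -0.98 ± 0.32, adjusted p = 0.0453) and lost its call without any array but replicate 4 of CMP. Without replicate 3 of HSC or of CMP, 2 receptors fell.

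Of 35 measured adhesion and migration genes, 5 were higher (14.3%) and 6 lower (17.1%) in HSC, against 6.01% and 7.43% of all genes (median 0.01). Alcam, an adhesion molecule of the immunoglobulin family, measured 8.80, 8.84, 8.71, 8.40 and 8.56 in HSC, against 7.40, 7.68, 7.52 and 7.92 in CMP (log2 1.03 ± 0.17, adjusted p = 0.000208). Itgb5, an integrin beta chain, rose by 0.85 ± 0.13, and Adgre5, an adhesion receptor coupled to G proteins, by 0.76 ± 0.20, which missed the threshold without replicate 3 of CMP (adjusted p = 0.0508). Cd48, a receptor that marks progenitors past the long-term stem cell, measured 8.26, 8.43, 8.01, 8.07 and 8.35 in HSC, against 9.61, 9.51, 9.62 and 9.37 in CMP (2.47-fold lower, adjusted p = 1.88e-07).

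Among cell cycle inhibitors and the retinoblastoma family, 2 of 16 measured rose (12.5%) and 1 fell (6.25%), close to the 6.01% and 7.43% of all genes. Cdkn1c, the inhibitor p57 known to hold stem cells at rest, measured 8.54, 8.41, 7.61, 8.07 and 8.03 in HSC, against 5.59, 5.93, 6.21 and 5.66 in CMP. It was 4.87-fold higher in HSC without overlap (log2 2.28 ± 0.36, adjusted p = 0.000148). Tsc22d1, a leucine zipper growth regulator, rose by 0.82 ± 0.14 (adjusted p = 0.000352). Rb1, the retinoblastoma protein, measured 7.72 to 8.25 in HSC and 8.33 to 8.77 in CMP (log2 -0.48 ± 0.14, adjusted p = 0.0271), and missed the threshold without replicate 2 or 3 of HSC or replicates 2 to 4 of CMP, each left out alone (adjusted p from 0.0501 to 0.114). Cdkn1a, the inhibitor p21, varied within HSC at 5.27, 5.27, 5.77, 7.59 and 6.31, against 6.33, 7.39, 7.27 and 7.90 in CMP, and missed the threshold (log2 -1.18 ± 0.40, adjusted p = 0.0541). It passed without replicate 4 of HSC (adjusted p = 0.00358) or replicate 1 of CMP (adjusted p = 0.0263).

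Of 42 measured genes of DNA replication, 17 fell and 0 rose in HSC (median -0.39), and the mean level of the list was 9.46, 9.41, 9.34, 8.92 and 9.44 in HSC, against 9.75, 9.67, 9.61 and 9.75 in CMP. The changes were modest. Ccne2, the cyclin E that starts replication, measured 8.21, 7.98, 8.13, 7.49 and 7.93 in HSC, against 8.49, 8.48, 8.67 and 8.74 in CMP (1.56-fold lower, log2 -0.64 ± 0.13, adjusted p = 0.00195). The replication factor Mcm10 fell by 0.86 ± 0.23 and the ribonucleotide reductase subunit Rrm2 by 0.75 ± 0.20. Without replicate 4 of CMP their adjusted p-values were 0.0512 and 0.0777. Gins1, a subunit of the replicative helicase complex, fell by 0.65 ± 0.17, and its adjusted p was 0.0663 without replicate 1 of CMP. Replicate 4 of HSC was lowest for all 4 genes. Without it, 11 members fell, and 11, 11 and 9 fell without replicate 1, 2 or 4 of CMP.

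Of 54 measured mitosis genes, 13 fell and 0 rose in HSC, and 51 lay below 0 (median -0.42). The mean level was 9.21, 8.95, 8.96, 8.22 and 8.81 in HSC, against 9.45, 9.07, 9.06 and 9.35 in CMP, so replicate 1 of HSC overlapped CMP. Plk4, the kinase of centriole duplication, measured 7.94 to 8.91 in HSC and 8.66 to 9.59 in CMP (log2 -0.76 ± 0.18, adjusted p = 0.00737). The kinetochore motor Cenpe was lower by -0.85 ± 0.25, the kinesin Kif2c by -0.74 ± 0.20 and the kinase Aurkb by -0.72 ± 0.22, with adjusted p-values from 0.0192 to 0.0291. Without replicate 1 of CMP each of these 3 calls was lost, and also without replicate 4 or 5 of HSC for Cenpe and Aurkb and without replicate 4 of CMP for Kif2c and Aurkb. Mki67, the proliferation antigen Ki-67, measured 9.34 to 10.62 in HSC and 10.44 to 11.03 in CMP and did not pass (adjusted p = 0.21). The number of fallen members was 23 without replicate 1 of HSC, 7 without replicate 4 of HSC, 6 without replicate 1 of CMP and 5 without replicate 4 of CMP, and 3 when the 9 arrays were fitted alone.

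Among 55 measured genes on a list for ribosome production, not all of them assembly factors, 14 fell and 0 rose in HSC, and 52 lay below 0 (median -0.28). The mean level of this list did not overlap, at 8.78 to 9.02 in HSC and 9.13 to 9.27 in CMP. Srm, spermidine synthase, measured 9.75, 9.67, 9.60, 9.84 and 9.57 in HSC, against 10.46, 10.42, 10.43 and 10.76 in CMP (1.78-fold lower, adjusted p = 0.000183). Bysl and Rrp12, both needed for the small ribosomal subunit, fell by 0.80 ± 0.18 and 0.77 ± 0.16. The change of Rrp12 was only -0.05 under 1 of 23 alternative settings (adjusted p = 0.864). Rrs1, needed for the large subunit, fell by 0.82 ± 0.22 and lost its call without replicate 2 of HSC or replicate 4 of CMP. Without replicate 4 of CMP, 9 members fell. Myc, which drives ribosome production, measured 9.76, 9.92, 9.77, 9.50 and 9.49 in HSC, against 10.04, 10.29, 10.12 and 9.94 in CMP. It fell by 0.41 ± 0.10 (adjusted p = 0.0111, and 0.0536 without rescaling), the only change among 13 genes of the Myc, Max and Myb group. The structural ribosomal proteins differed by little, with a median of -0.08, though 36 of 41 lay below 0. Their mean level was 12.23 to 12.31 in HSC and 12.32 to 12.38 in CMP, without overlap. Of the 41, 1 was called lower in HSC, Rpl14 at -0.52 ± 0.14. Without replicate 4 of CMP the adjusted p of Rpl14 was 0.0628.

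Of 70 measured subunits of oxidative phosphorylation, 16 fell and 0 rose, 65 lay below 0, and the median was -0.21. The mean level was 10.6 to 10.7 in HSC and 10.8 to 11.0 in CMP. Atp5g1, a subunit of the ATP synthase ring, fell by 0.62 ± 0.11 (adjusted p = 0.000522) and Uqcrq, a subunit of complex III, by 0.50 ± 0.11. Under 1 of 23 alternative settings the change of Uqcrq was only -0.01 (adjusted p = 0.977). Without replicate 4 of HSC 10 members fell, without replicate 1 of CMP 9, and without replicate 4 of CMP 7, the count also found without rescaling. Of 44 genes of glycolysis, the pentose phosphate path and the citrate cycle, 10 fell and 3 rose in HSC (median -0.16), and 5 fell without replicate 4 of CMP.

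The isoforms of lactate dehydrogenase and the glucose handling genes moved apart. Ldhb, the heart-type subunit, measured 9.48, 9.44, 9.52, 9.16 and 9.55 in HSC, against 8.13, 8.25, 7.99 and 7.94 in CMP (2.55-fold higher, log2 1.35 ± 0.13, adjusted p = 1.70e-07). Ldha, the muscle-type subunit, measured 8.36, 7.93, 7.62, 7.67 and 8.06 in HSC, against 8.75, 8.42, 8.42 and 9.0 in CMP (log2 -0.72 ± 0.19, adjusted p = 0.0165), and missed the threshold without replicate 1 or 4 of CMP. Aldoc measured 7.61 to 8.36 in HSC and 5.40 to 5.99 in CMP. Slc2a3, a high-affinity glucose transporter, measured 8.94 to 9.43 in HSC and 7.89 to 8.12 in CMP (log2 1.20 ± 0.19, adjusted p = 0.00017). Slc16a1, a lactate transporter, fell by 0.97 ± 0.22, and Idh1, the cytosolic isocitrate dehydrogenase, by 1.05 ± 0.23 (adjusted p = 0.00536 and 0.00373).

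Immediate early and stress genes, which respond within minutes to handling and stimulation, varied between arrays more than between sorts. Their mean level was 8.35, 9.70, 9.59, 10.63 and 10.07 in HSC, against 7.50, 9.60, 9.57 and 9.46 in CMP, with replicate 1 lowest in both. Replicate 1 of GMP was low too, at 7.37, against 8.69 to 9.11 on the other GMP arrays. The group difference of 0.63 did not pass (exact two-sided permutation p = 0.333). Of 37 measured, 2 rose (5.41%) and 1 fell (2.70%) in HSC, against 6.01% and 7.43% of all genes. The median was 0.73, but 0.12 without replicate 1 of CMP, 0.43 without replicate 4 of HSC and 1.08 without replicate 1 of HSC. Egr1, a zinc finger factor of this response, measured 10.21, 12.30, 12.20, 12.55 and 12.38 in HSC, against 6.37, 11.97, 12.06 and 11.88 in CMP (adjusted p = 0.467). Klf4, a Krüppel-like factor, measured 9.02, 10.95, 10.92, 11.51 and 11.50 in HSC, against 6.48, 10.04, 10.13 and 9.61 in CMP (log2 1.72 ± 0.57, adjusted p = 0.051), and passed without replicate 1 of HSC (adjusted p = 0.00976) or replicate 2 or 3 of CMP (adjusted p = 0.0346 and 0.03). Dusp6, a phosphatase of the ERK pathway, rose by 0.98 ± 0.21 (adjusted p = 0.00323). Rhob, a small GTPase, rose by 1.53 ± 0.49 (adjusted p = 0.0415), and lost its call without any of replicates 2 to 5 of HSC or replicate 1 of CMP (adjusted p from 0.0622 to 0.181). The member that fell was Myc. Without replicate 1 of HSC 9 members rose, and without any other HSC array or replicate 1 of CMP 1 did.

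Of 9 measured genes of T and NK cells, 1 rose and 2 fell in HSC, where 6.01% and 7.43% of all genes did. Lat, an adaptor of T cell receptor and platelet signalling, measured 8.19 to 8.86 in HSC and 7.62 to 8.19 in CMP (log2 0.63 ± 0.15, adjusted p = 0.00582). Gzmb, granzyme B, was at the floor on 4 of 5 HSC arrays and at 5.62 to 7.22 in CMP (at least 2.10-fold lower, adjusted p = 0.00959). Nkg7, a granule membrane protein, fell by 0.58 ± 0.18 (adjusted p = 0.037) and kept its call on leaving out replicate 3 of HSC or replicate 4 of CMP, but no other single array. Cd3e, a chain of the T cell receptor complex, measured 6.86 to 7.79 in HSC and 5.88 to 7.27 in CMP and did not pass (adjusted p = 0.18). The list's mean level was 7.50 to 8.03 in HSC and 7.68 to 7.97 in CMP. Of 9 B cell genes, the coreceptor Cd72 rose by 0.60 ± 0.17 (adjusted p = 0.0252) and lost its call without replicate 1, 2 or 5 of HSC or replicate 1 or 4 of CMP. Of 15 genes of stroma and endothelium, the collagen chain Col1a2 rose by 1.09 ± 0.28 (adjusted p = 0.0112), and the member that fell was Pdgfrb. Col1a2 missed the threshold without replicate 2 of CMP (adjusted p = 0.0517). The defining markers Cd79a, Ms4a1, Cd3g and Cdh5 did not pass the filter on low values. The mean levels of these lists overlapped, at 7.71 to 8.21 in HSC and 7.70 to 7.86 in CMP for B cells, and 7.05 to 7.82 in HSC and 7.22 to 7.52 in CMP for stroma. The part of such cells in any difference was not tested.

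**Figure D4:**
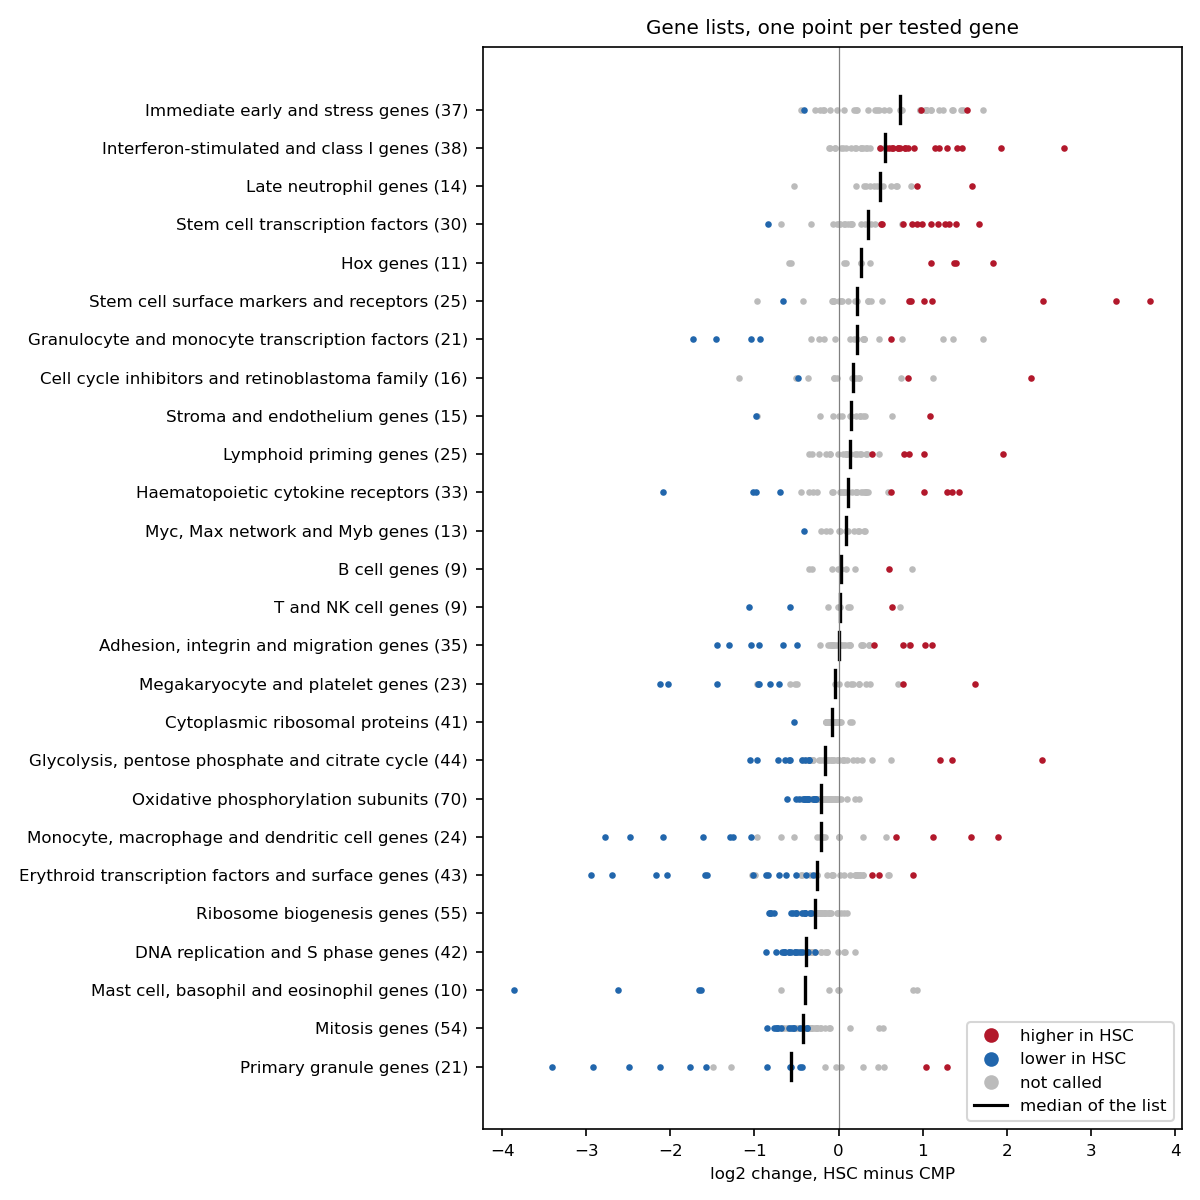
Each row is a gene list with its number of tested members, each point a member placed by its log2 change (HSC minus CMP, horizontal axis), red where higher in HSC, blue where lower and grey where the test was not passed. Black marks are list medians, which run from 0.73 for immediate early genes, mostly grey and 0.12 without replicate 1 of CMP, and 0.55 for interferon-stimulated genes down to -0.57 for primary granule genes, with all genes at -0.00062.

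The levels of the leading genes in the other normal sorts place the step within the tree. These values describe means, and the later sorts were not tested here. Procr averaged 9.21 ± 0.21 in HSC and 5.50 ± 0.24 in CMP, and was at the floor on every GMP and MEP array. Hlf averaged 11.08 ± 0.05 in HSC, 9.40 ± 0.20 in CMP, 7.44 ± 0.20 in GMP and 7.36 ± 0.78 in MEP, so its CMP level lay between that of HSC and those of the later sorts. The same order held for Flt3, at 10.89 ± 0.12 in HSC, 9.88 ± 0.17 in CMP, 7.14 ± 0.58 in GMP and 6.77 ± 0.42 in MEP. Meis1 averaged 10.62 ± 0.04 in HSC, 9.85 ± 0.12 in CMP, 7.51 ± 0.21 in GMP and 8.91 ± 0.79 in MEP. Iigp1 differed from these, with MEP above CMP, at 10.67 ± 0.24 in HSC, 7.99 ± 0.22 in CMP, 6.22 ± 0.43 in GMP and 8.66 ± 0.41 in MEP.

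Genes of single branches had CMP levels above HSC. Car1 averaged 5.79 ± 0.34 in HSC, 8.74 ± 1.29 in CMP, 5.90 ± 0.48 in GMP and 12.27 ± 0.28 in MEP, so its CMP level lay between HSC and MEP. Gata1 averaged 6.12 ± 0.34 in HSC, 7.69 ± 0.42 in CMP, 6.03 ± 0.22 in GMP and 9.46 ± 0.09 in MEP. Csf1r and Ctsg took the other branch. Csf1r averaged 8.92 ± 0.47 in HSC, 11.01 ± 0.17 in CMP, 11.51 ± 0.04 in GMP and 8.0 ± 0.42 in MEP. Ctsg averaged 8.87 ± 0.98 in HSC, 11.79 ± 0.13 in CMP, 12.83 ± 0.06 in GMP and 8.84 ± 0.65 in MEP. Cpa3 was highest in CMP by its mean, at 6.03 ± 0.36 in HSC, 9.88 ± 0.33 in CMP, 9.46 ± 0.18 in GMP and 8.44 ± 0.81 in MEP, and its CMP and GMP arrays were within about their spread of each other. Itga2b averaged 9.57 ± 0.14 in HSC, 11.01 ± 0.22 in CMP, 9.18 ± 0.13 in GMP and 10.62 ± 0.27 in MEP. Errors are SD over 5 HSC, 4 CMP, 4 GMP and 3 MEP arrays.

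**Figure D5:**
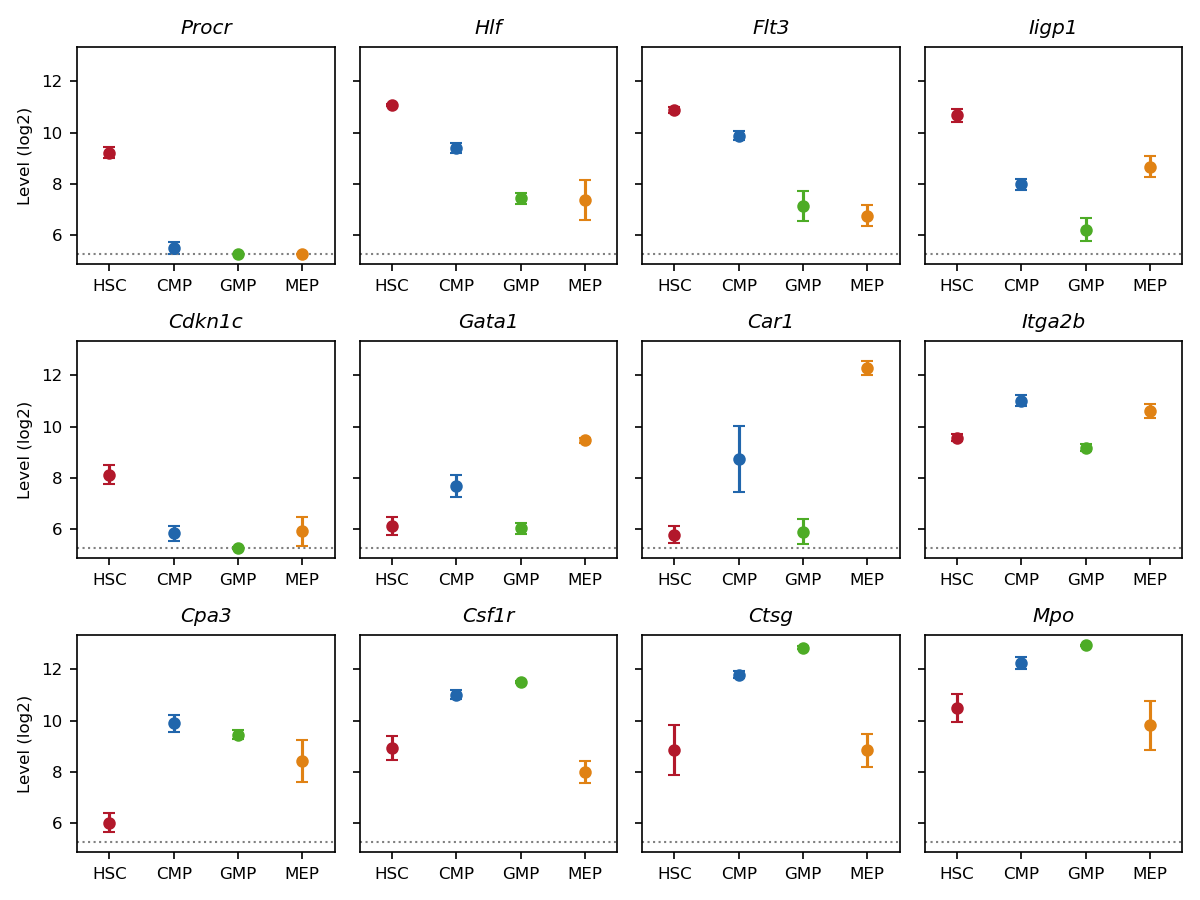
Points are group means and bars their SD for the level (log2 scaled intensity, vertical axis) of 12 genes in HSC, CMP, GMP and MEP, with the floor at 5.27 as a dotted line. Hlf and Flt3 step down from HSC through CMP, while Gata1 and Car1 are highest in MEP and Csf1r, Ctsg and Mpo in GMP, with the CMP mean between HSC and the highest sort in each.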

How the data were processed

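The authors deposited linear probe set intensities. The submitters' processing notes name MAS5, without a version. Between 282 and 374 values per HSC or CMP array were at or below 0, and how they arose is not given in the sources used here. Here the 64 control probe sets of 22690 were set aside and the 22 arrays of the sorted experiment were scaled to a common mean after trimming 2% at each end (factors 0.949 to 1.03 for HSC and CMP). Values were raised to a floor at the 25th percentile and taken to log2. Differences in the total RNA of a cell are lost by this scaling, and the order of values close to the floor is unreliable. Probe sets above the experiment's median (108, log2 6.75) on at least 3 arrays were kept (13439), and the kept probe set of highest mean represented a gene. By GEO's platform annotation, 20380 probe sets had a single gene and were eligible for testing, while 691 had several and 1555 none. Of these, 20359 had a symbol in the RefSeq table of GRCm38.p6. No genome position is given for a probe set.

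Groups came from the sample titles. All 22 arrays were fitted with limma 3.58.1 in R 4.3.3 (lmFit and eBayes, two-sided), with the contrast HSC minus CMP and Benjamini-Hochberg adjustment over 8422 genes. Errors on log2 changes are standard errors from the variance pooled over all fitted sorts, and errors on levels are standard deviations within a sort. The number of arrays, 5 and 4, limits the precision. On data simulated for this comparison over 8422 genes, 92% of log2 changes of 1 and 98% of log2 changes of 2 were recovered, and 3.55% of calls were false. The simulation drew independent normal noise with the same spread for a gene in every group. It held no floor and no arrays that stood apart in whole gene groups. Its rates describe the fitted model, and the rates in the real arrays were not tested. Replicate numbers of HSC and CMP were tested for pairing by the correlation of deviations from group means.

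Named genes were, in each direction, the 12 called genes of largest change without overlap and with under 50% of the lower group's arrays at the floor, and the 6 of largest bound with the whole lower group at the floor. To these were added called or defining members of 27 gene lists, the sort marker genes and genes with opposite probe sets. A fold is given as "at least" where the lower group lay at the floor on most of its arrays. The lists and rules were chosen with earlier results of these data known. In all 23 alternatives were run, covering scaling, floor, filter, probe set summary, variance model, 3' to 5' ratio, replicate block and leaving out arrays. Ly6a was not analysed here.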

Additional observations from a re-analysis of the deposited data

Results flagged for a closer look

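Within the 5 HSC or 4 CMP arrays, the highest or lowest array was tested against the other arrays of its group by Dixon's rule. Of 385 groups of arrays tested, 40 (10.4%) had an array that stood apart, where chance gives about 1 in 20 for a single group. The groups lie on the same arrays, and list means hold named genes, so they are not independent. An array that stands apart can flag many of them, and 10.4% was not tested against that rate. In 5 of the 40 (Pglyrp1, Csrp3, Cavin2, Trpc6 and Gzmb) every other array lay at the floor, so the gap equals the range by construction and that rate does not apply. These were replicate 4 of CMP in 11 cases, replicate 3 of HSC in 10, replicate 4 of HSC in 8, replicate 1 of CMP in 7 and replicate 1 of HSC in 4.

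Replicate 3 of HSC stood high in myeloid genes, at 7.04 for Cebpd, 7.91 for Igsf6, 9.72 for Csf1r, 8.05 for Ccr2, 11.96 for Ngp and 11.68 for Camp, and at 5.53 for Gzmb with the others at the floor. It stood low at 9.41 for Tgm2, 6.79 for Trim47 and 8.78 for the mean of the stem cell transcription factors. Replicate 4 of HSC was low for the replication genes Rrm2 (8.73) and Mcm10 (7.01), for the mean of the replication list (8.92), and for Myl10 (9.09), Iigp1 (10.25) and Foxo3 (11.05). It was high for Ifit3 (7.08) and, at 5.38 with the other 4 arrays at the floor, for Csrp3. Replicate 1 of HSC was low for Klf4 (9.02) and Egr1 (10.21), and high for Car1 (6.37) and for Cavin2 (5.56, the others at the floor).

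Replicate 1 of CMP was low for Egr1 (6.37), Klf4 (6.48), Rhob (7.19), Il3ra (6.93), the mean of the immediate early list (7.50) and the mean of the granulocyte and monocyte transcription factors (8.05), a list that holds Egr1 and Klf4 too. It was high for Pglyrp1 (5.59, the others at the floor). Replicate 4 of CMP was low for the mast cell and basophil genes Hdc (7.17) and Mcpt8 (6.37), and for Sqor (6.09), Foxo3 (10.12), Zeb2 (9.94), Ccl9 (9.36) and Ifitm3 (11.25). It was high for the platelet receptor Treml1 (8.12), for Srm (10.76), Trpc6 (5.47, the others at the floor) and the mean of the stem cell surface list (8.23).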

How the results depend on the processing

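Of the 148 named genes that changed, 87 kept their call under every one of the 23 alternatives that tested them and 61 lost it at least once. Of the 23 that had not passed, 9 passed under at least 1 alternative. None (0) of the 148 turned sign, while 4 that had not passed, Tek, Tal1, S100a8 and Egr1, crossed 0 under at least 1 alternative. Among all 1132 changed genes, Fam210b turned sign with the floor at the 50th percentile, where 23 others had a difference of exactly 0, and Mtm1 with the mean of the kept probe sets. The median of 4 of 27 lists changed sign under at least 1 alternative. Between 688 and 1945 genes were called over all alternatives, against 1132. Leaving out 1 array gave 688 to 1225 genes, 343 to 491 of them higher and 345 to 734 lower in HSC. Without rescaling 357 genes were lower. With array weights 1945 changed, 928 higher and 1017 lower. The cause of these moves was not tested. With the replicate number as a block 997 genes were called, 927 of them among the 1132. Arrays of the same number correlated at 0.528, 0.052, 0.132 and 0.141 after removal of group means, and arrays of different numbers at -0.439 to 0.280. Only replicate 1, at 0.528, lay above that range. The numbers were not taken as pairs, and replicate 1 alone was set apart. Without replicate 1 of HSC, CMP and GMP together 838 genes were called. The difference in the 3' to 5' ratio and in the immediate early level passed under no alternative (exact p from 0.2 to 0.657 and from 0.0571 to 0.821). Signal over the floor limits genes whose lower group is at the floor to bounds, and a floor at the 50th percentile gave 1171 calls, against 1122 at the 10th.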

Other observations

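Another 3 gene groups, chosen after their values were seen, share members with the lists above, among them Cdkn1c, Ndn, Mgst1, Gstm1 and several of the GTPases. Among imprinted genes, which are expressed from the allele of 1 parent, 6 of 23 measured were higher in HSC and 0 lower, with a median log2 change of 0.09. Beside Cdkn1c and Ndn, these were Igf2r, the scavenger receptor of insulin-like growth factor 2 (7.57 ± 0.61 in HSC, 5.96 ± 0.42 in CMP, adjusted p = 0.00385), and Phlda2, a growth-restraining protein of the placenta (8.23 ± 0.23 in HSC, 6.93 ± 0.44 in CMP, adjusted p = 0.000257). Impact, a regulator of translation, and Cd81, a tetraspanin, rose by 0.67 ± 0.21 and 0.43 ± 0.08. Igf2 itself measured 7.62 ± 0.57 in HSC and 7.45 ± 0.49 in CMP and did not pass (adjusted p = 0.863).

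Small GTPases of the Gbp, Irg and Gimap families, which serve cell-autonomous defence and lymphocyte survival, rose in 10 of 14 measured and fell in 0, with a median of 1.04. Gimap7 averaged 7.22 ± 0.34 in HSC and 5.75 ± 0.33 in CMP, and Gimap1 9.27 ± 0.24 in HSC and 7.89 ± 0.30 in CMP (adjusted p = 5.30e-07 and 2.19e-05). Gimap4 did not pass (log2 -0.11, adjusted p = 0.761).

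Among 37 genes of glutathione and aldehyde detoxification, 6 rose and 4 fell, where 6.01% and 7.43% of all genes did, with a median of 0.01. Gsta4, a transferase of lipid peroxidation products, averaged 7.60 ± 0.44 in HSC and 5.48 ± 0.23 in CMP (adjusted p = 1.01e-08), and Gpx7, a peroxidase of the endoplasmic reticulum, 7.68 ± 0.27 in HSC and 6.64 ± 0.09 in CMP. Mgst3, a microsomal transferase, fell by 0.69 ± 0.20 (adjusted p = 0.0274). Errors on levels are SD over 5 HSC and 4 CMP arrays.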
